A study of Mus musculus with 14 samples.

Results

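The 5 aquaporin genes with enough reads for a test in the mouse left ventricle, Aqp1, Aqp4, Aqp7, Aqp8 and Aqp11, were followed across WT and HCN4F hearts under Sham or TAC conditions. They were chosen by name, with their measured levels in these same 4 groups and the TAC results of Aqp4 and Aqp8 already known. Their fold changes are therefore given as a description, with standard errors and without p-values. The table of counts holds 13 aquaporin rows among 49315 genes. The 5 members passed the filter on low counts, and none of the other 8 rows did.

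HCN4F mice carry a knock-in in exon 4 of Hcn4, the pacemaker channel of the sinoatrial node, in which a tyrosine is replaced by phenylalanine, and the study describes the change as a gain of function. The mutation is carried in every cell, so its presence in the ventricle is not separated from its effect on heart rate. Male mice of 10 to 12 weeks underwent transverse aortic constriction (TAC), which narrows the aorta and raises the pressure load on the left ventricle, or a Sham operation. Left ventricular tissue was taken 5 weeks later, and polyA-selected RNA was sequenced. Used here were 14 libraries, described by the study as biological replicates: 4 each of WT-Sham, HCN4F-Sham and HCN4F-TAC, and replicates 2 and 3 of WT-TAC.

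Aquaporins are membrane channels that let water cross a cell membrane along an osmotic gradient. The classical water channels pass water, the aquaglyceroporins also pass glycerol, and some members pass hydrogen peroxide, ammonia or other small molecules. In the heart the family is best known from AQP1 in the capillary endothelium and from its possible part in myocardial oedema, while AQP7 carries glycerol, a fuel released from triglyceride.

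Depth was 22309914 to 35210939 counts per library. Values are given in CPM, the reads of a gene scaled to a common library size, and a count of 3, the limit that a count of 0 allows, corresponds to 0.0859 to 0.137 CPM. The tissue held cardiomyocytes throughout: 10 of their marker genes, most of them shared by atrium and ventricle, such as Myh6, Tnnt2 and Ryr2, summed to 69690 to 95390 CPM in every library. That sum was lowest in HCN4F-TAC, where it reached at most 80790 CPM, against at least 84730 CPM in the other groups. In tissue RNA, fewer cells of a type and less RNA per cell cannot be told apart.

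Positions of the genes are those of GENCODE on GRCm38. Aqp1 (ENSMUSG00000004655) spans chr6:55336432-55348555 on the plus strand and Aqp7 (ENSMUSG00000028427) spans chr4:41033074-41048139 on the minus strand. Aqp8 (ENSMUSG00000030762, chr7:123462291-123468004, plus strand) and Aqp11 (ENSMUSG00000042797, chr7:97724006-97738289, minus strand) share a chromosome without being neighbours.

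Start regions are shown for the most abundant member and for the member with the higher level after TAC in both genotypes. Each runs from 250 bases before to 50 bases after the RefSeq start (assembly GRCm38.p6), printed 5′ to 3′ on the strand of the gene. Capitals mark a GC box, GGGCGG, in Aqp1 (plus strand, chr6:55336049-55336348), and an M-CAT element, CATTCC, read on the opposite strand as GGAATG, in Aqp8 (plus strand, chr7:123462044-123462343).
Aqp1: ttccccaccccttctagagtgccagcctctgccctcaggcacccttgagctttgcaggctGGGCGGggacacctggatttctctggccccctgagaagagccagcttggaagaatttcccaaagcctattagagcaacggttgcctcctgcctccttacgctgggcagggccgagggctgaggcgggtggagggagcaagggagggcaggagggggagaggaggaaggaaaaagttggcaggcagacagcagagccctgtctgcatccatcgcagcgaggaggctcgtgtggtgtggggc
Aqp8: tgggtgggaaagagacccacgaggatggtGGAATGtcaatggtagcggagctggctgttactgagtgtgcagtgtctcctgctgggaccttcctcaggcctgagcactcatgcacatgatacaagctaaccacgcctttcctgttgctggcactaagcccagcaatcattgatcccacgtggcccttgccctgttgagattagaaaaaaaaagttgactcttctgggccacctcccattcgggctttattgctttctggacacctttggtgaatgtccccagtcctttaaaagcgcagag
The M-CAT element is the core of the sites bound by TEAD factors in muscle genes. Of 32841 start regions of the same length, 14.7% held CATTCC on either strand, and 35.7% held the GC box. Neither region held TATAAA, present in 13.6%, or the AP-1 motif TGANTCA, present in 7.81%. The E-box CANNTG, present in 72.3%, occurred at 1 place in Aqp1 and 2 in Aqp8. The GATA motif AGATAA (11.2%) and the tonicity element core TGGAAA (21.4%) were in neither, and both were in 1 of the 2 start regions of Aqp7. All motifs were searched on both strands. Aqp1 had 62.7% G and C with 8 CpG sites, and Aqp8 had 52.0% with 6, against medians of 52.7% and 7. The start region of Aqp11 was richer, with 68.0% G and C and 27 CpG sites. The 2 Aqp7 start regions had 55.0% with 3 CpG sites and 49.7% with 0. A match of letters is a description and is no evidence of binding.

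Per kilobase of exon, the scale on which genes can be compared, the members differed widely in level. Aqp1, the capillary and red cell water channel, had a mean of 207.6 CPM per kilobase over the 14 libraries and ranked 174 of 15262 genes. Aqp7 followed at 9.53 CPM per kilobase (rank 3154), and Aqp8 at 3.25 CPM per kilobase (rank 6492). Aqp4 at 0.227 CPM per kilobase and Aqp11 at 0.169 CPM per kilobase were among the lowest genes tested. Lengths joined all annotated exons, 6233 bases for Aqp4 and 9418 for Aqp11 against 1581 for Aqp8, and the ranks depend on them. Without division by length, Aqp11 (1.60 CPM) was above Aqp4 (1.42 CPM). Aqp1 made up 92.5% to 95.5% of the summed level per kilobase of the 5 genes in every library.

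**Figure D1:**
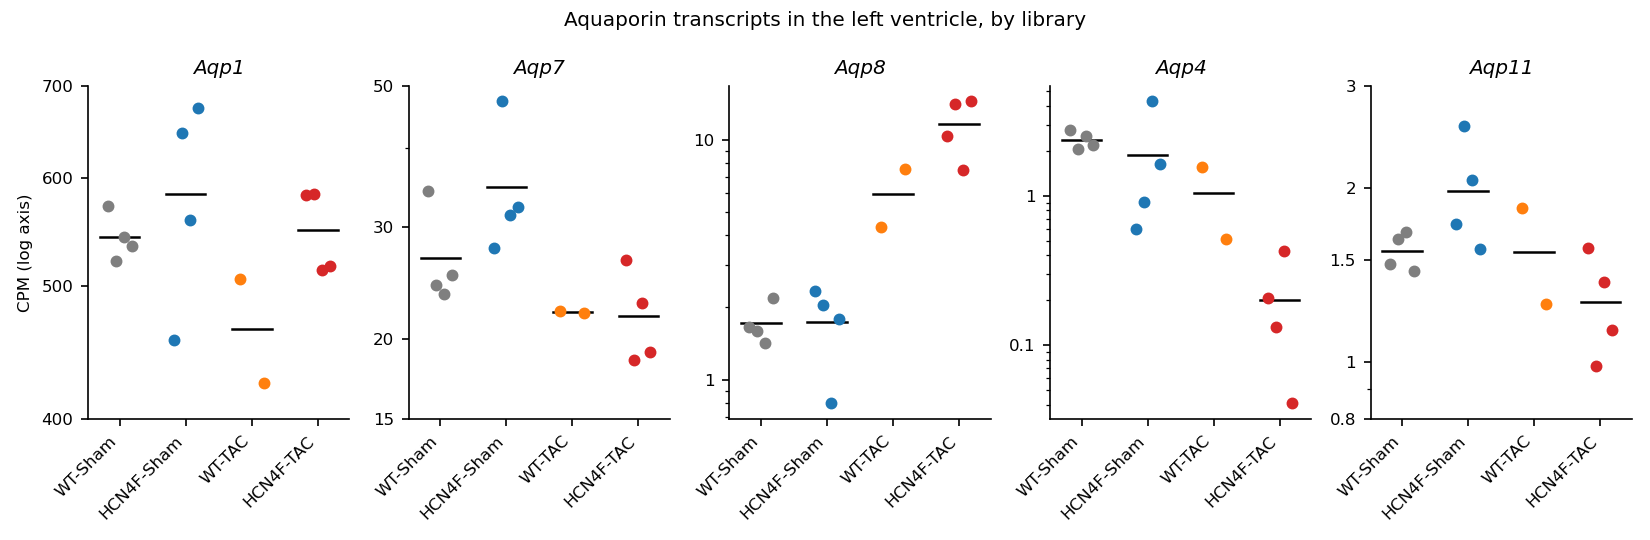
Level of each aquaporin in CPM (vertical log axis, scaled separately for each gene) in every library of the 4 groups. Points are libraries and lines are group means. All 6 TAC libraries lie above all 8 Sham libraries for Aqp8, and the 4 HCN4F-TAC libraries lie below the rest for Aqp4.

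Aqp8 was the member whose level was higher after TAC in both genotypes. AQP8 passes water and also ammonia and hydrogen peroxide, and is best known from liver, pancreas and gut. In WT-Sham the 4 libraries had 1.66, 1.60, 1.42 and 2.19 CPM (1.72 ± 0.332 CPM, SD, n = 4). In HCN4F-Sham they had 2.33, 2.05, 0.795 and 1.78 CPM (1.74 ± 0.670 CPM, SD, n = 4). The Sham groups therefore lay on the same level, and replicate 3 of HCN4F-Sham was the lowest library of all. WT-TAC had 4.31 and 7.56 CPM (5.93 ± 2.29 CPM, SD, n = 2). HCN4F-TAC had 10.3, 14.1, 7.49 and 14.5 CPM (11.6 ± 3.31 CPM, SD, n = 4). The lowest TAC library stood above the highest Sham library, and 3 of the 4 HCN4F-TAC libraries stood above both WT-TAC libraries.

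The Aqp8 level was 3.47-fold higher in WT-TAC than in WT-Sham (log2 fold change 1.80, SE 0.34) and 6.69-fold higher in HCN4F-TAC than in HCN4F-Sham (log2 fold change 2.74, SE 0.29). A gene was called where the adjusted p of edgeR's quasi-likelihood test was under 0.05 and the log2 fold change was above 1 or below -1. Aqp8 was called in both TAC comparisons. In WT this rested on 1 library: without WT-TAC replicate 3 the log2 fold change was 1.32 and Aqp8 was not called. Between the Sham groups the log2 fold change was 0.00 (SE 0.33). Between the TAC groups HCN4F was higher by 0.95 on the log2 scale (SE 0.32), and the value was 0.62 against WT-TAC replicate 3 alone and 1.42 against WT-TAC replicate 2 alone. The difference of the 2 TAC responses was 0.94 on the log2 scale (SE 0.46).

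Aqp4 was the member whose level was lowest in HCN4F-TAC. AQP4 is the water channel of astrocyte end feet and of fast skeletal muscle fibres, where it is held at the membrane through the dystrophin complex. Its gene (ENSMUSG00000024411) spans chr18:15389496-15410982 on the minus strand. An annotated antisense gene overlaps it, and whether reads were counted by strand is not given in the sources used here, so reads of the 2 genes cannot be told apart. The WT-Sham libraries had 2.74, 2.07, 2.52 and 2.19 CPM (2.38 ± 0.306 CPM, SD, n = 4). The HCN4F-Sham libraries had 0.602, 0.913, 4.30 and 1.63 CPM (1.86 ± 1.68 CPM, SD, n = 4), and replicate 3 had the highest level of all 14 libraries. These values reached beyond those of WT-Sham on both sides. WT-TAC had 1.56 and 0.515 CPM (1.04 ± 0.740 CPM, SD, n = 2). HCN4F-TAC had 0.207, 0.132, 0.424 and 0.0407 CPM (0.201 ± 0.163 CPM, SD, n = 4). These 4 libraries held 5, 4, 12 and 1 reads of Aqp4, so that replicate 4 was at or under the limit that a count of 0 allows, and an exact Poisson interval on its 1 read runs from 0.0253 to 5.57 reads, for counting error only.

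In HCN4F, Aqp4 was 9.04-fold lower after TAC than after Sham (log2 fold change -3.18, SE 0.70), the libraries did not overlap, and the gene was called. The size depended on single libraries: it shrank to a log2 fold change of -2.38 when HCN4F-Sham replicate 3 was left out and grew to -3.85 on omission of HCN4F-TAC replicate 3. In WT the log2 fold change was -1.26 (SE 0.68), the libraries did not overlap, and Aqp4 was not called. That value was -2.19 from WT-TAC replicate 3 alone and -0.60 from WT-TAC replicate 2 alone. HCN4F-TAC was lower than WT-TAC by a log2 fold change of -2.26 (SE 0.87) without a call, and this was -1.32 against WT-TAC replicate 3 alone. HCN4F-Sham differed from WT-Sham by -0.34 (SE 0.50), a value of -1.14 when HCN4F-Sham replicate 3 was left out and -0.04 when its replicate 1 was. The TAC responses differed by -1.92 on the log2 scale (SE 1.01), which was -0.98 without WT-TAC replicate 2.

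Aqp4 and Aqp8 ran in opposite directions from library to library, also between replicates of 1 group. HCN4F-Sham replicate 3 combined the highest Aqp4 with the lowest Aqp8, and HCN4F-TAC replicate 4 combined the lowest Aqp4 with the highest Aqp8. In HCN4F-Sham, WT-TAC and HCN4F-TAC the order of the replicates by Aqp8 was the reverse of their order by Aqp4. With 2 WT-TAC libraries only 2 orders exist, and in HCN4F-TAC replicates 1 and 2 differed by 5 against 4 reads of Aqp4, with exact Poisson intervals of 1.62 to 11.7 and 1.09 to 10.2 reads, so their order is not resolved. In WT-Sham, where both genes varied little, it was not. The ratio of Aqp8 to Aqp4 reads was 0.561 to 1.00 in WT-Sham, 0.185 to 3.88 in HCN4F-Sham, 2.76 and 14.7 in WT-TAC, and 17.7 to 356 in HCN4F-TAC. The HCN4F-TAC ratios rest on 1 to 12 reads of Aqp4, the ratio of 356 on 1 read.

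Within the 8 Sham libraries the log2 CPM of the 2 genes had Pearson's r = -0.788 (Spearman's rho = -0.762), and within the 6 TAC libraries r = -0.981 (rho = -0.943). After subtraction of the group means, r over the 14 libraries was -0.928, and it was -0.873 without HCN4F-Sham replicate 3. Leaving out each library in turn gave -0.951 to -0.873. Among 12564 genes with a mean of at least 1 CPM, 2 had deviations with an r to those of Aqp4 that was this negative, Pdlim1 (r = -0.937) and Aqp8, and 7 were below -0.9. On log2 CPM without that subtraction (r = -0.927), 9 genes were as negative and 26 were below -0.9. The pair was singled out after its values were seen, and the points share libraries, scaling and, for Aqp4, low counts.

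**Figure D2:**
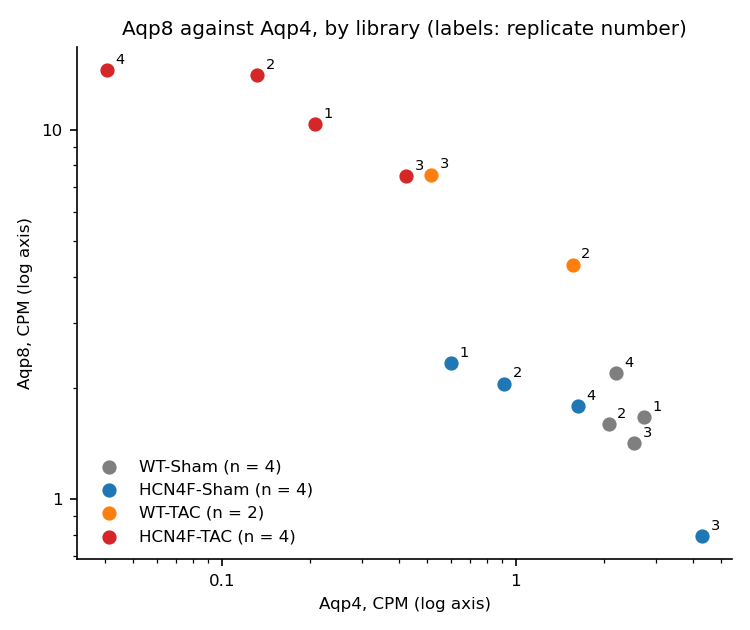
Aqp8 (vertical log axis, CPM) against Aqp4 (horizontal log axis, CPM). Each point is a library, coloured by group and labelled with its replicate number. The points fall from HCN4F-Sham replicate 3 (4.30 CPM of Aqp4, 0.795 CPM of Aqp8) to HCN4F-TAC replicate 4 (0.0407 and 14.5 CPM).

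Aqp1 differed little between the groups. Its libraries had 572.2, 521.1, 543.1 and 535.2 CPM in WT-Sham (542.9 ± 21.5 CPM, SD, n = 4) and 456.7, 646.3, 558.8 and 674.5 CPM in HCN4F-Sham (584.1 ± 98.2 CPM, SD, n = 4). They had 506.0 and 424.5 CPM in WT-TAC (465.3 ± 57.6 CPM, SD, n = 2) and 582.4, 583.4, 513.6 and 517.5 CPM in HCN4F-TAC (549.2 ± 38.9 CPM, SD, n = 4). Only the WT-TAC libraries lay below both WT-Sham and HCN4F-TAC without overlap, and the other groups overlapped. The log2 fold change after TAC was -0.22 (SE 0.13) in WT and -0.09 (SE 0.10) in HCN4F, and between genotypes it was 0.11 (SE 0.10) under Sham and 0.24 (SE 0.13) under TAC.

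Markers of the cells that carry AQP1 gave the setting for these values. The 10 endothelial markers, among them Pecam1, Cdh5 and Kdr, summed to 1156 to 1966 CPM, and none of them passed the test in any of the 4 comparisons. Their sum was lowest (1156 CPM) in HCN4F-Sham replicate 1, which also had the lowest Aqp1 of its group, and highest (1966 CPM) in HCN4F-Sham replicate 2. In WT-TAC it was 1311 CPM in replicate 2 and 1582 CPM in replicate 3, against 1300 to 1535 CPM in WT-Sham. Of the WT-TAC libraries, replicate 3 had the lower Aqp1 (424.5 against 506.0 CPM). Red blood cell markers, among them Hba-a1 and Hbb-bs of haemoglobin, summed to 70.9 to 366 CPM, with 88.6 and 100.4 CPM in WT-TAC against 101.4 to 221.8 CPM in WT-Sham. After subtraction of group means, r with Aqp1 over the 14 libraries was 0.64 for the endothelial sum and 0.551 for the red blood cell sum. The part of either in the Aqp1 values was not tested.

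Aqp7, the aquaglyceroporin of the set, was lower after TAC than after Sham in HCN4F. WT-Sham had 34.1, 24.3, 23.5 and 25.2 CPM (26.8 ± 4.95 CPM, SD, n = 4), and HCN4F-Sham had 27.8, 47.4, 31.4 and 32.3 CPM (34.7 ± 8.69 CPM, SD, n = 4). WT-TAC had 22.18 and 22.01 CPM (22.1 ± 0.121 CPM, SD, n = 2), and HCN4F-TAC had 26.7, 18.5, 22.8 and 19.1 CPM (21.8 ± 3.76 CPM, SD, n = 4). The 4 HCN4F-TAC libraries lay below the 4 HCN4F-Sham libraries, and the WT-TAC libraries lay below those of WT-Sham. The log2 fold change was -0.67 (SE 0.17) in HCN4F and -0.28 (SE 0.21) in WT, neither was called, and the difference of the responses was -0.39 (SE 0.26). Without HCN4F-Sham replicate 2 the HCN4F value was -0.49. Between genotypes the log2 fold change was 0.37 (SE 0.17) under Sham and -0.02 (SE 0.21) under TAC.

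Fat cells express AQP7 strongly, so 9 adipocyte markers, among them Adipoq, Plin1 and Lep, were examined, of which 2 passed the filter. Their sum was 21.5 to 27.7 CPM over the libraries and came chiefly from Cidea, which had means of 23.0 CPM in WT-Sham and 24.9 CPM in HCN4F-TAC. The other 8 genes summed to 0.0 to 1.08 CPM, and 3 of the 9 were at 0 in all HCN4F-TAC libraries. The other tested gene, Cfd (adipsin), was called lower after TAC in HCN4F, as Aqp7 was lower, from a mean of 0.355 CPM to 0.0537 CPM, which is under the limit that a count of 0 allows (log2 fold change -2.61, edgeR adjusted p = 0.0483). The endothelial sum was highest, at 1966 CPM, in HCN4F-Sham replicate 2, the library with the highest Aqp7. Deviations of the endothelial sum from group means had r = 0.732 with those of Aqp7, against r = 0.134 for the adipocyte sum. Schwann cell markers moved with Aqp7 as well (r = 0.752). They summed to 19.9 to 29.4 CPM in HCN4F-Sham and 14.1 to 17.7 CPM in HCN4F-TAC, and 4 of 7 were called lower, among them Mbp, Sox10 and S100b, with log2 fold changes of -1.08, -1.05 and -1.14. The part of these cells in the Aqp7 values was not tested.

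Aqp11, a distant family member that sits in the endoplasmic reticulum, had low levels with small differences. WT-Sham had 1.48, 1.63, 1.68 and 1.44 CPM (1.56 ± 0.118 CPM, SD, n = 4), and HCN4F-Sham had 1.73, 2.56, 2.06 and 1.57 CPM (1.98 ± 0.435 CPM, SD, n = 4). WT-TAC had 1.85 and 1.26 CPM (1.55 ± 0.417 CPM, SD, n = 2), and HCN4F-TAC had 1.58, 0.988, 1.38 and 1.14 CPM (1.27 ± 0.259 CPM, SD, n = 4). Every pair of compared groups overlapped. The log2 fold change after TAC was -0.63 (SE 0.21) in HCN4F and -0.02 (SE 0.25) in WT, and the latter ran from -0.30 to 0.25 as either WT-TAC library was left out. Between genotypes it was 0.33 (SE 0.20) under Sham and -0.28 (SE 0.25) under TAC. Aqp7 and Aqp11 had r = 0.738 and rho = 0.83 within the 6 TAC libraries. Within the 8 Sham libraries r was 0.682 but rho 0.214, and without HCN4F-Sham replicate 2, the highest for both genes, r was 0.0818.

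**Figure D3:**
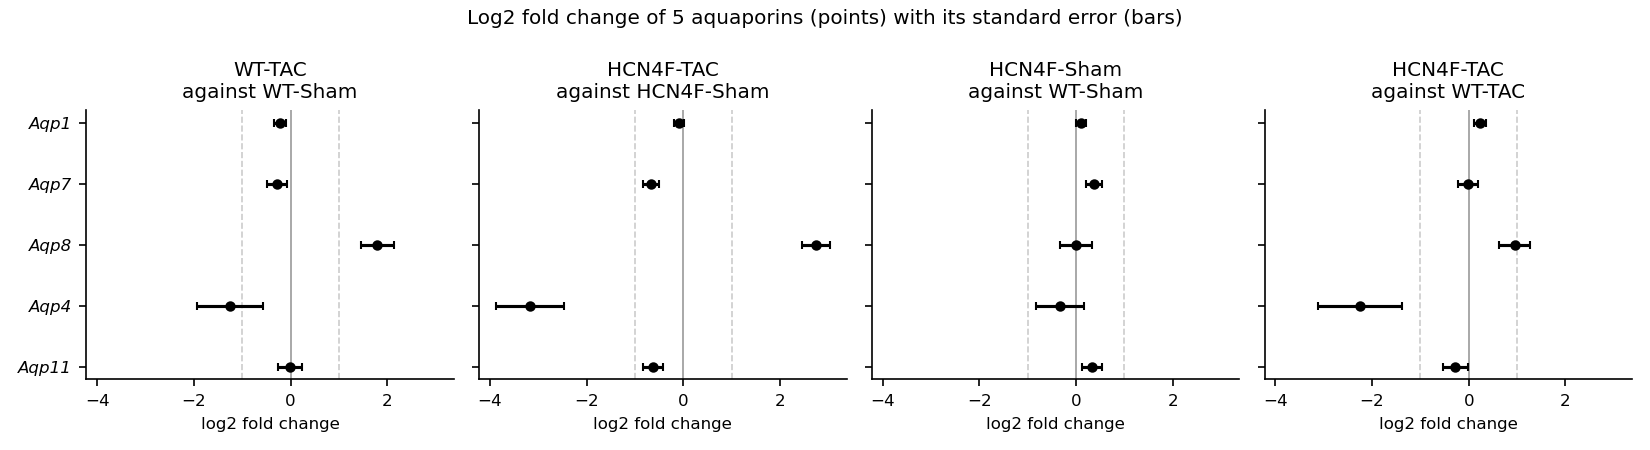
Log2 fold change (horizontal axis) of the 5 aquaporins in the 4 comparisons. Points are fitted values, bars are standard errors and dashed lines mark -1 and 1. Aqp8 lies at 1.80 and 2.74 in the TAC comparisons, Aqp4 at -1.26 and -3.18, and the other 3 members lie between the dashed lines in each comparison.

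The counts over the 5 members stand against those over all 15292 genes tested, and since the members were chosen with these contrasts known, nothing is read from them. In WT, TAC against Sham called 1 member higher (Aqp8) and 0 lower, where 0.445% of genes were called higher and 0.262% lower. There, 4 of 5 members did not overlap between the groups, as 39.2% of genes did not with only 2 WT-TAC libraries. In HCN4F, TAC against Sham called Aqp8 higher and Aqp4 lower, where 1.58% and 1.16% of genes were called, and 3 members did not overlap against 15.1% of genes. Between the Sham groups 0 members were called and 0 were free of overlap, against 0.085% of genes higher, 0.124% lower and 8.56% not overlapping. Between the TAC groups 0 members were called and 2 did not overlap, Aqp1 and Aqp4, against 0.0392% higher, 0.0327% lower and 22.2% not overlapping. The WT and HCN4F comparisons use separate libraries, while each genotype comparison shares its libraries with the TAC comparisons.

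The makeup of the aquaporins other than Aqp1 differed between Sham and TAC. Of their summed level per kilobase, Aqp8 held 7.67% to 12.8% in WT-Sham and 4.02% to 12.7% in HCN4F-Sham. It held 24.8% and 37.4% in WT-TAC and 36.4% to 57.1% in HCN4F-TAC. The share of Aqp7 was the counterpart, with 82.5% to 90.7% over the Sham libraries, 60.9% and 71.2% in WT-TAC, and 42.1% to 61.9% in HCN4F-TAC. The share of Aqp4 was 0.0407% to 0.523% in HCN4F-TAC and 0.792% to 5.52% in HCN4F-Sham, and it was 0.647% and 2.27% in WT-TAC and 3.20% to 4.13% in WT-Sham.

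**Figure D4:**
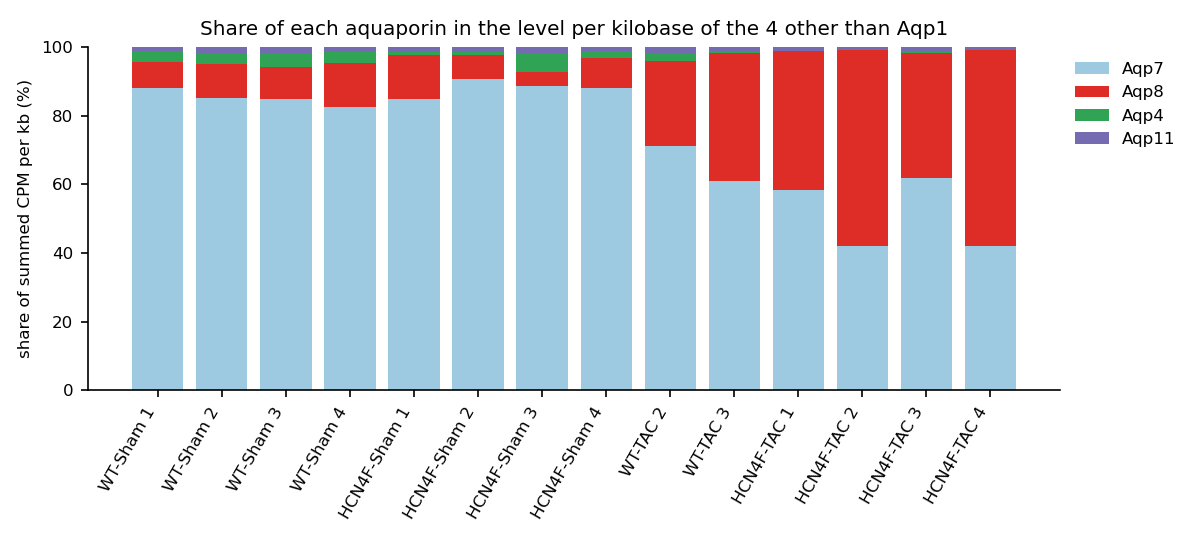
Share (%) of Aqp7, Aqp8, Aqp4 and Aqp11 in their summed level per kilobase in each of the 14 libraries. Stacked bars add to the whole. Aqp8 takes at most 12.8% in a Sham library and at least 24.8% in a TAC library.

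Markers of other tissue were examined beside Aqp8 and Aqp4. The 7 atrial markers summed to 101.5 to 214 CPM over the Sham libraries, 212.8 and 271 CPM in WT-TAC and 431.3 to 1875 CPM in HCN4F-TAC, chiefly through Nppa, which the loaded ventricle also expresses. Without Nppa the sum was 28.2 to 37.9 CPM over the Sham libraries, 18.2 and 26.8 CPM in WT-TAC and 13.6 to 43.0 CPM in HCN4F-TAC. In HCN4F, Nppa was called higher (log2 fold change 3.21), Sbk2 and Stard10 were called lower (-1.63 and -1.12), and Myl4 and Myl7 had 1.60 and 2.99 without a call. The atrial light chains stood apart in HCN4F-TAC replicate 2, with 17.4 CPM of Myl4 and 9.91 CPM of Myl7, against at most 4.07 and 0.163 CPM in the other libraries of that group. When that library was left out, the HCN4F log2 fold change after TAC was 2.63 for Aqp8 and -3.00 for Aqp4, both called. The 12 fast skeletal muscle markers, relevant because that muscle is rich in AQP4, summed to 16.2 to 30.5 CPM over the Sham libraries and 41.9 to 76.7 CPM over the TAC libraries, chiefly through Mybpc2. Members of this list went both ways in HCN4F. Mybpc2 and Tnnt3 were called higher (log2 fold change 1.47 and 1.15) and Tnni2 was called lower (-1.21), while Mylpf and Atp2a1 had -0.41 and -0.36 without a call. Over the 6 tested genes of the list the median was 0.26 in HCN4F, and in WT 1 was called, higher. Macrophage markers summed to 171.5 to 282.2 CPM in HCN4F-TAC and 168.6 to 243.8 CPM in the other groups, with none past the test. Fibroblast markers summed to 774.8 to 1270 CPM in HCN4F-TAC against 616.1 to 813.2 CPM in the other groups, and in HCN4F 3 of 6 passed the adjusted p, all higher, with Col1a1 called (log2 fold change 1.14, edgeR adjusted p = 0.00125). After subtraction of group means, r over the 14 libraries was 0.659 with Aqp8 and -0.544 with Aqp4 for the atrial sum, 0.12 and -0.0157 for that sum without Nppa, 0.549 and -0.54 for the macrophage sum, and 0.439 and -0.445 for the fibroblast sum. It was 0.196 and -0.304 for the fast skeletal muscle sum, and -0.152 and 0.0457 for the cardiomyocyte sum. The Schwann cell sum, which in HCN4F was lower after TAC, had 0.491 and -0.4, and the adipocyte sum had 0.455 and -0.392. The part of these cells in the Aqp8 and Aqp4 values was not tested.

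Genes that work with aquaporins were taken as 5 lists of 84 genes, of which 72 were tested with edgeR, p-values being adjusted over all genes by the Benjamini-Hochberg method. After TAC, 0 were called in WT (28 at an unadjusted p under 0.05) and 2 in HCN4F (33 at an unadjusted p under 0.05). The latter were 1 higher and 1 lower of 72, near the 1.58% and 1.16% of all genes, so the number is no result about the lists. Between genotypes 0 were called under Sham and 0 under TAC (16 and 11 at an unadjusted p under 0.05), and the difference of the TAC responses passed in 0 (14 at an unadjusted p under 0.05). The share of all genes under an unadjusted p of 0.05 is not given here, so these numbers are not read as a result about the lists. Both called genes belonged to hydrogen peroxide and carbon dioxide handling. Nox4, an oxidase that makes hydrogen peroxide, rose from 0.846 ± 0.233 to 2.37 ± 0.991 CPM (SD, n = 4 each, log2 fold change 1.49, SE 0.31, edgeR adjusted p = 0.00485). Car3, a carbonic anhydrase of muscle and fat, had 6, 9, 45 and 25 reads in HCN4F-Sham and 0, 7, 4 and 1 reads in HCN4F-TAC. It was called lower (edgeR adjusted p = 0.0142), but its HCN4F-TAC mean of 0.103 CPM is at the limit that a count of 0 allows, so the fitted log2 fold change of -2.75 is imprecise. It was -2.08 when HCN4F-Sham replicate 3 was left out and -3.48 on omission of HCN4F-TAC replicate 2. HCN4F-Sham replicate 3, with the 45 reads, also had the highest sum of the adipocyte markers other than Cidea (1.08 CPM), and Cfd was called lower in the same comparison. The part of fat cells in the Car3 values was not tested. Nox4 and Car3 passed in all 14 fits that left out 1 library.

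The remaining list genes that passed on the adjusted p alone changed by less than the fold threshold. Over all genes, the adjusted p alone was passed by 7.2% higher and 6.41% lower after TAC in HCN4F, by 2.92% and 1.62% in WT, and by 0.229% and 0.242% between the Sham groups. In the list of hydrogen peroxide and carbon dioxide handling, 6 of 23 tested genes passed in HCN4F, 2 higher and 4 lower, with a median log2 fold change of -0.14 over the list against -0.01 over all genes. Gpx3, a secreted glutathione peroxidase, rose by 0.51 on the log2 scale (adjusted p = 0.00893), and Sod1, which makes hydrogen peroxide from superoxide, fell by 0.39 on the log2 scale (adjusted p = 0.0038). Cat, the gene of catalase, had a log2 fold change of 0.09 (adjusted p = 0.605). Gpx3 and Sod1 passed in all 14 fits that left out 1 library, Prdx5 in 10 and Cyba in 9, and the number of the list that passed ran from 4 to 8. In WT 1 of 23 passed, Prdx5, a peroxiredoxin, which was lower. It passed in 5 of the 14 fits, with an adjusted p of 0.275 without WT-TAC replicate 3. The median in WT was -0.15 against -0.02 over all genes.

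Glycerol and triglyceride handling, the setting of AQP7, had 6 of 16 genes past the adjusted p in HCN4F, 1 higher and 5 lower, with a median log2 fold change of -0.20. Lipe, the hormone-sensitive lipase, fell from 66.4 ± 4.97 to 45.4 ± 2.13 CPM (log2 fold change -0.55, SE 0.10, adjusted p = 0.0017). Dgat2, which makes triglyceride, fell by 0.45 on the log2 scale (adjusted p = 0.0152). Gk, the kinase that phosphorylates glycerol, rose by 0.40 (adjusted p = 0.0448), and Pnpla2, the first lipase of triglyceride breakdown, had a log2 fold change of -0.24 (adjusted p = 0.0543). Of the 14 fits that left out 1 library, Lipe passed in 14, Dgat2 in 12 and Gk in 4, with adjusted p up to 0.0539 for Dgat2 and 0.118 for Gk, both without HCN4F-TAC replicate 4. Of the others counted lower, Plin5 passed in 14, Plin4 in 8 and Lpl in 2, so the count of 6 rests partly on values near the threshold (adjusted p = 0.0267 for Plin4 and 0.0496 for Lpl). The number of the list that passed ran from 2 to 8. It was 2 without HCN4F-TAC replicate 2, 2 without HCN4F-TAC replicate 4, and 8 without HCN4F-Sham replicate 3. In WT 0 of 16 passed, and the median was -0.04. The difference of the responses of Lipe was -0.42 (SE 0.15, adjusted p = 0.467).

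Among the anchoring partners of AQP4, 3 of 13 tested genes passed the adjusted p in WT and 1 in HCN4F, all higher, while Aqp4 itself was lower. The median log2 fold change was 0.29 in WT and 0.18 in HCN4F. In WT, Sgcd (delta-sarcoglycan) had 12.7 ± 0.861 CPM under Sham (SD, n = 4) and rose to 22.2 ± 0.316 CPM under TAC (SD, n = 2, log2 fold change 0.80, edgeR adjusted p = 0.00358), and Dmd (dystrophin) rose by 0.64 (adjusted p = 0.029). In HCN4F, Sntb1 rose by 0.70 (adjusted p = 0.0155), and its WT value was 0.68 (adjusted p = 0.0848). Sgcd and Dmd had 0.10 and 0.32 in HCN4F (adjusted p = 0.581 and 0.105). The difference of the responses of Sgcd was -0.70 (SE 0.16, adjusted p = 0.315). In WT, Sgcd passed in 13 and Dmd in 10 of the 14 fits that left out 1 library. Both missed the threshold without WT-TAC replicate 3, which leaves 1 library in that group. Over the alternatives the log2 fold change in WT ran from 0.755 to 0.853 for Sgcd and from 0.584 to 0.694 for Dmd.

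In cell volume, osmolyte and urea transport, 4 of 20 tested genes passed the adjusted p in WT and 3 in HCN4F, all higher, with medians of 0.27 and 0.09. Slc12a7, a potassium-chloride cotransporter of volume control, was among them in both genotypes (adjusted p = 0.0348 and 0.0171). When WT-TAC replicate 3 was left out, which leaves 1 library in that group, the 4 WT genes all missed the threshold. Over the alternatives their log2 fold change in WT ran from 0.41 to 0.545 for Slc12a7 and from 0.538 to 0.701 for Lrrc8b. It ran from 0.357 to 0.436 for Slc12a4 and from 0.429 to 0.499 for Slc12a2. On leaving out HCN4F-TAC replicate 2, 1 passed in HCN4F, and Slc12a7 had an adjusted p of 0.0531. Slc6a6, the taurine transporter, was the 1 list gene that passed between the Sham groups, higher in HCN4F by 0.79 on the log2 scale (84.4 ± 13.0 against 146.2 ± 24.9 CPM, SD, n = 4 each, edgeR adjusted p = 0.0331). It passed in 8 of 14 fits that left out 1 library, with an adjusted p of up to 0.11, without WT-Sham replicate 3.

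For each member the 3 genes with the most similar pattern were found by Pearson's r of log2 CPM over the 14 libraries, as a description of these libraries. For Aqp4 these were Dgat2 (r = 0.978), Fbxo31 (0.969) and Phkg1 (0.967), and r of the deviations from group means was 0.94, 0.877 and 0.873. Dgat2 is also in the triglyceride list above. For Aqp8 they were Scml4 (0.98), Gnao1 (0.97) and Nlrc3 (0.968), with deviations at 0.792, 0.707 and 0.756. Aqp1 was most like Fbxw2 (0.869), Cavin1 (0.866), a coat protein of caveolae, and Slc43a3 (0.848). Aqp7 was most like C130074G19Rik (0.913), Miip (0.901) and Cdkn1c (0.896), and Aqp11 was most like Rtf1 (0.893), Rhpn2 (0.844) and Pou2f1 (0.832). Spearman's rho over these 15 pairs ran from 0.741 to 0.978. After removal of the 2 libraries farthest from the median of the member, r ran from 0.678 to 0.968.

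The other 8 aquaporin rows, Mip, Aqp2, Aqp3, Aqp5, Aqp6, Aqp9, Aqp12 and the pseudogene Aqp10-ps, had at most 14 reads in a library. Aqp12 had 0 reads in all libraries. The highest level was that of Aqp2, the vasopressin-regulated channel of the kidney, at 0.57 CPM in HCN4F-TAC replicate 4.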

How the data were processed

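The authors deposited counts, whole numbers of reads per gene without normalization, for left ventricular polyA RNA sequenced on an Illumina platform. Per the labels the genome build was GRCm38. Not given in the sources used here are the aligner, the read counter, the annotation and whether strand was used. The study describes 16 samples, and 14 were used. A further 2 columns of per-sample values match no listed sample and were not used. Groups came from the sample labels.

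The 5 members and all gene and marker lists were chosen with earlier results of these data known, so no p-value is given for a member. Of 49315 genes, 15292 passed filterByExpr. Counts were scaled by TMM and fitted with edgeR 4.0.16 (R 4.3.3, quasi-likelihood, robust, 1 mean per group over all 14 libraries), with Benjamini-Hochberg adjustment. Each standard error was taken from the test, as the absolute log2 fold change divided by the square root of the F statistic. The study used DESeq2, which is an alternative here (version 1.42.0), and its thresholds were kept (adjusted p under 0.05, log2 fold change beyond 1 in either direction). The code was tested on simulated data. Log2 CPM used a prior count of 2. Lengths are unions of exons in GENCODE, where 99.5% of gene IDs matched. Named list genes were the called ones with a mean of at least 1 CPM, at most 3 per list and comparison, plus the 3 genes most like each member. Car3 and the list genes named without a call were chosen after their values were seen. Single results of some list and marker genes are not reported here. Figures were drawn with matplotlib 3.10.9.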

Additional observations from a re-analysis of the deposited data

Results flagged for a closer look

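Aqp7 in WT-Sham was set apart by 1 library. Replicate 1 had 34.15 CPM, and its gap to the next library took 0.84 of the range of the group. It was the 1 of 15 tests of members in groups of 4 in which the highest or lowest library stood apart, and chance sets apart about 1 in 20. Without it the log2 fold change of Aqp7 in WT was -0.15 and between the Sham groups 0.51.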

How the results depend on the processing

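Of 565 values of the members under alternatives, 561 moved by less than the spread between replicates, none of the called values reversed, and 4 moved further, all of them on leaving out a WT-TAC library. Fitted on the compared groups alone, TAC in WT called 2 members, Aqp4 besides Aqp8, by DESeq2 and by edgeR, against 1 over all groups, and leaving out each replicate in turn gave 0 to 1 members. On the adjusted p alone, list genes numbered 8 in WT and 16 in HCN4F after TAC, and 1 between the Sham groups. Over the fits that left out 1 library these numbers ran from 0 to 13, 9 to 21 and 0 to 5, the 0 in WT being without WT-TAC replicate 3. List genes called after TAC in HCN4F numbered 1 with edgeR on the compared groups and 1 with a filter on mean CPM, against 2, and 3 without a filter or with WT-TAC replicate 2 or replicate 3 left out, where Aqp2 was called higher as well, on 1 or 2 reads a library in HCN4F-Sham. Leaving out each replicate gave 0 to 1 list genes between the Sham groups, Car3 being called without HCN4F-Sham replicate 1. Without a filter Aqp2 was called between the TAC groups (1 list gene), and Sgcd passed for the difference of the TAC responses (1 list gene), as it did with DESeq2 on all groups (1). Signs of small member values that were not called changed in some settings, for Aqp8 between the Sham groups in 8 of 23, Aqp11 after TAC in WT in 6 of 23, Aqp7 between the TAC groups in 3 of 23 and Aqp11 there in 1 of 23. Of 573 adjusted p-values of passing list genes, 116 missed the threshold and none changed sign. The cause was not tested. Libraries with the same replicate number showed no shared deviation, with correlations from -0.12 to 0.16, which cannot show whether animals were matched. With the replicate number as a block 1 member was called in WT and 2 in HCN4F, as without it. The correlation of Aqp4 with Aqp8 was also computed, as an alternative chosen after seeing the data, on log2 of CPM plus 1, where r of the deviations was -0.838. With 2 WT-TAC libraries and 1 to 12 Aqp4 reads in HCN4F-TAC, depth and replication limit those values.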

Other observations

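Reads of Aqp2 were rare but uneven. The HCN4F-TAC libraries held 5, 9, 4 and 14 reads of Aqp2, and no other library held more than 2. Aqp5, a channel of gland and lung epithelium, had 9 reads in HCN4F-TAC replicate 4 and at most 2 in any other library. Aqp6 had 0 to 7 reads with no group apart. These genes were singled out after their values were seen, and did not pass the filter on low counts. The fits that tested Aqp2 are not read further here, since its level in HCN4F-Sham, 1 or 2 reads a library, is under the limit that a count of 0 allows.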
